A study of Homo sapiens with 12 samples.

Results

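The insulin-like growth factor (IGF) binding proteins IGFBP1 to IGFBP7 were followed in A375 cells, a human melanoma line, that carried an empty vector or a YAP mutant. All 7 genes were taken by their symbols from the 31585 distinct loci of the expression table, and 6 of them were among the 15055 loci that passed a filter on low values and were tested. The cells had been stably transduced with the retroviral vector MSCV-IRES-Hygro, either empty (Control) or carrying YAP with the S127A mutation (YAP-S127A), with S127A and S94A (YAP-S127A,S94A), or with S127A and S381A (YAP-2SA). S127A and S381A remove sites at which LATS kinases inactivate YAP, and S94A removes the contact of YAP with the TEAD transcription factors. Each group had 3 cultures, plated separately and grown on plastic in serum-containing DMEM, so 12 libraries were compared. The mutants were expressed from a viral promoter on top of the cells' own YAP, in transduced pools of 1 cell line. The tests below therefore measure the spread between cultures. A difference between pools cannot be told apart from an effect of the mutant. No group carried added YAP without a mutation. In the comparisons with Control, an effect of added YAP therefore cannot be told apart from one of its mutations. One record field of the YAP-2SA libraries also lists S94A, but their titles do not, and the records and the study's methods differ on the hours of culture before lysis.

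IGF binding proteins are secreted proteins that hold IGF-I and IGF-II, control how long these ligands last and whether they reach the IGF-I receptor, and release them when proteases cut the binding protein. IGFBP1 to IGFBP6 bind IGFs with high affinity, IGFBP6 prefers IGF-II, and IGFBP7 is a more distant relative that binds IGFs weakly. Several of them also act on cells without IGF, through integrins, matrix or other surface proteins. RNA was measured here, and neither secreted protein nor bound IGF was.

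Values are FPKM, fragments scaled to transcript length and to mapped reads, a scale that corrects for transcript length and so allows levels of different genes to be compared. Summed FPKM ran from 790865 to 901558 over the libraries, 20161 to 20656 loci were above 0 in each, and read depth is unknown. Differences were tested with limma on log2(FPKM + 1) over all 12 libraries, with Benjamini-Hochberg adjustment over the 15055 loci. A gene was said to rise or fall at an adjusted p under 0.05, and every log2 fold change is a difference of group means of log2(FPKM + 1), printed with its standard error (SE). With 3 libraries a side, the smallest two-sided p that exact permutation allows is 0.1. In bulk RNA, fewer cells that make a transcript and less of it per cell cannot be told apart.

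YAP1, the gene introduced, was read first as a check of the labels. It had 34.1 and 33.0 FPKM in Control replicates 1 and 2, and between 129.7 and 187 FPKM in the 9 libraries with a YAP mutant. The library labelled Control replicate 3 had 172 FPKM, within the range of the mutants, so each comparison with Control is also given without it wherever it matters. The melanocyte regulator SOX10 and the neural crest marker S100B were present in Control, at 234 to 281 and at 41.3 to 51.7 FPKM, while the pigment genes PMEL, MLANA, TYR, TYRP1 and DCT stayed at or below 0.949 FPKM in all libraries. The leukocyte, endothelial and epithelial markers PTPRC, PECAM1 and EPCAM stayed at or below 0.149 FPKM. The other listed markers were not all low, since the epithelial marker KRT14 had 6.16 to 7.62 FPKM in Control. The epithelial marker KRT5 and the fibroblast marker COL1A1 were at most 0.0777 and 0.428 FPKM in Control. They reached 1.67 and 36.3 FPKM in YAP-2SA.

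Regions before the RefSeq start sites of the 4 members with the largest changes are shown because these genes moved as pairs, IGFBP4 and IGFBP6 upward and IGFBP3 and IGFBP5 downward. The sequences come from the RefSeq promoter table and were placed on GRCh37 (hg19) by exact match. They are written 5′ to 3′ along the gene's strand, and capitals mark GGAATG or its reverse complement CATTCC, the core letters bound by TEAD factors. For IGFBP4 (chr17:38599452-38599701, plus strand), IGFBP3 (chr7:45960872-45961121, minus strand) and IGFBP5 (chr2:217560273-217560522, minus strand) the 250 bases before the RefSeq start are given. For IGFBP6 the 30 bases around the match (chr12:53491338-53491367, plus strand) are given. These RefSeq starts are those of the main GENCODE transcripts, but IGFBP3 and IGFBP6 each have another transcript that begins further upstream. The IGFBP3 window therefore lies in an intron, and the IGFBP6 stretch in an exon, of that other transcript.
IGFBP4: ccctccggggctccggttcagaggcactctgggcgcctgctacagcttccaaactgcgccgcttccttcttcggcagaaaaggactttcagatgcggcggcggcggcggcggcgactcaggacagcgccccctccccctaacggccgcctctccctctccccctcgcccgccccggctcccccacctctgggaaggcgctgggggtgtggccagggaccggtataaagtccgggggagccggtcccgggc
IGFBP6: cacccagtttagGGAATGcccctgccctct
IGFBP3: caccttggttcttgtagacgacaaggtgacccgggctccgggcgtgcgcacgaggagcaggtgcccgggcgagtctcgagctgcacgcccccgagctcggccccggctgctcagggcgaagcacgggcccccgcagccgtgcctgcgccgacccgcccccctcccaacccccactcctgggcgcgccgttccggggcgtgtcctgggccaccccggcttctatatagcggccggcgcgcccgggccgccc
IGFBP5: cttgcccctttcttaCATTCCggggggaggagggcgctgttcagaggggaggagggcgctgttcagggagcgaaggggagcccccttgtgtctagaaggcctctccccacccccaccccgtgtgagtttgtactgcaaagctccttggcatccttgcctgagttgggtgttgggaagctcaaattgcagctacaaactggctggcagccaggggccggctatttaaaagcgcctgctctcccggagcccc

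GGAATG was searched on both strands. IGFBP6 held 1 match, which began 101 bases before its RefSeq start and inside an exon of the transcript that begins further upstream, and IGFBP5 held 1 match in the opposite orientation, which began 235 bases before its start. IGFBP3 and IGFBP4 held 0, and so did the 3 windows of IGFBP2, while IGFBP1 and IGFBP7 were not among the members with a window. Of all 35116 promoter windows of the same length, 11.9% held this core. The AP-1 letters TGANTCA were in 0 of the 7 windows of members and in 6.57% of all windows. The GC box GGGCGG occurred 2 times before IGFBP3, 1 time before IGFBP4, 1 time before IGFBP6 and 1 time in 2 of the 3 IGFBP2 windows, and 42.6% of all windows held it. The IGFBP3 window had a GC content of 76%, above 91.3% of all windows, and that of IGFBP5 was 61.2%.

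The 7 genes lie at 5 places in GRCh37, with spans that cover all annotated transcripts. IGFBP2 (chr2:217497551-217529159, plus strand) and IGFBP5 (chr2:217536828-217560272, minus strand) face each other tail to tail, 7668 bases apart, with 0 protein-coding genes between them. IGFBP1 (chr7:45927959-45933259, plus strand) and IGFBP3 (chr7:45951844-45961473, minus strand) are a second such pair, 18584 bases apart. IGFBP4 (chr17:38599702-38613977, plus strand), IGFBP6 (chr12:53491220-53496129, plus strand) and IGFBP7 (chr4:57896939-57976551, minus strand) stand alone. The main transcripts of IGFBP3 and IGFBP7 have 5 exons and those of the others have 4. Since it is not stated whether reads were counted by strand, reads of IGFBP5 and DIRC3-AS1, which overlap over 1146 bases on opposite strands, may not be separated, and the same holds for IGFBP7 and its opposite-strand neighbours POLR2B, UBE2CP3 and IGFBP7-AS1.

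In Control cells IGFBP2, IGFBP6 and IGFBP4 led, with mean levels of 83.3, 70.9 and 66 FPKM, and each overlapped the next in this order. IGFBP3 followed at 47.3 FPKM, IGFBP7 had 23.4 and IGFBP5 18.6 FPKM, and the libraries of the last pair overlapped too. IGFBP1, which the liver releases in fasting, was between 0 and 0.141 FPKM in the 12 libraries and was the member not tested.

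**Figure D1:**
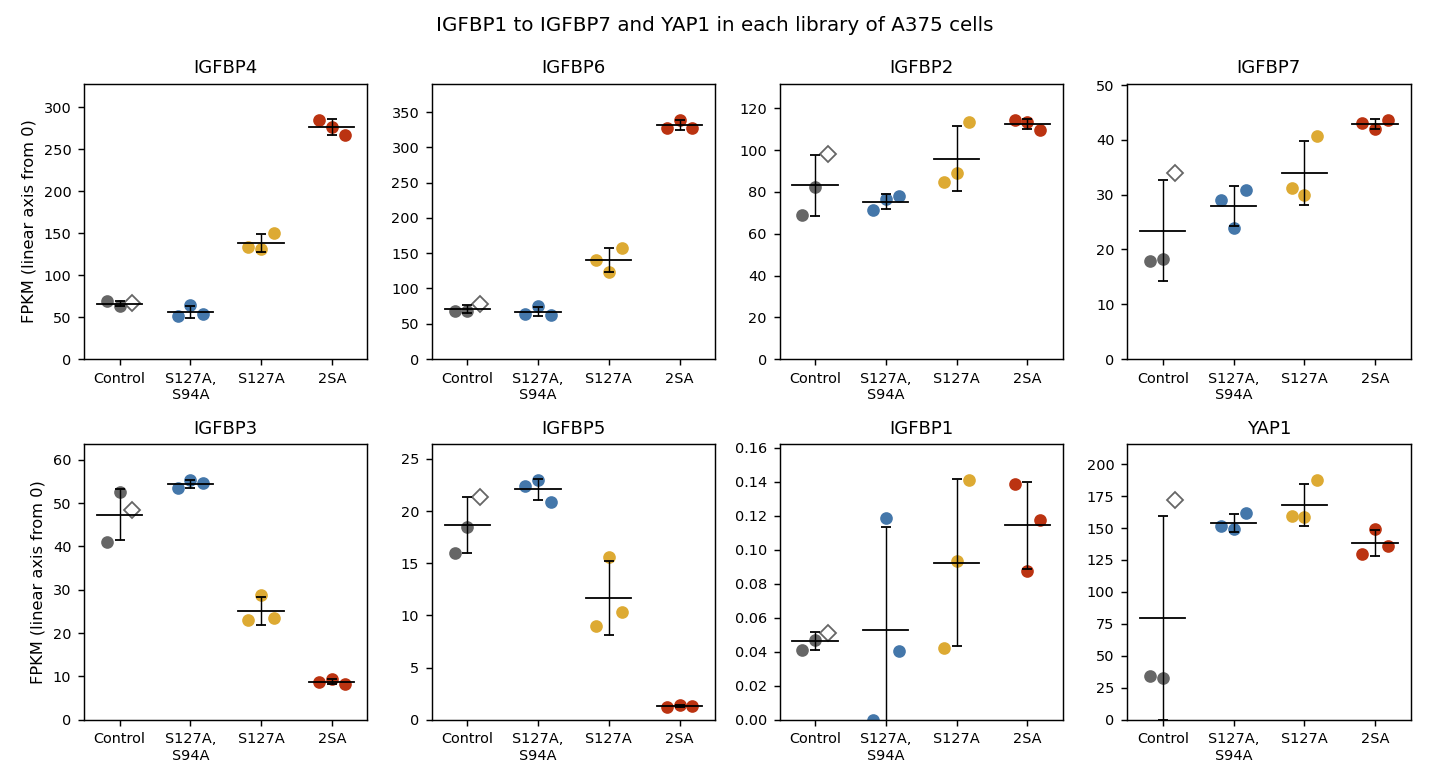
Level of IGFBP1 to IGFBP7 and YAP1 in each of the 12 libraries, in FPKM on linear axes that start at 0, with 1 point per library, the group mean as a line and the SD (n = 3) as a bar cut off at 0; the open diamond is the library labelled Control replicate 3. IGFBP4 and IGFBP6 are highest in YAP-2SA, IGFBP3 and IGFBP5 are lowest there, and YAP-S127A lies between YAP-2SA and Control for these 4 genes.

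YAP-2SA was compared with Control to ask what added YAP without the LATS sites S127 and S381 does to the family. All 6 tested members passed the test, IGFBP2, IGFBP4, IGFBP6 and IGFBP7 upward and IGFBP3 and IGFBP5 downward. Of all loci tested, 22.9% rose and 19.5% fell. IGFBP4 and IGFBP6 rose over 2-fold and IGFBP3 and IGFBP5 fell over 2-fold, changes made by 7.59% and 7.86% of all loci. In all 6 members the 3 YAP-2SA libraries did not overlap the 3 Control libraries, as in 52.8% of loci. The median absolute log2 fold change of the members was 2.13, against 0.26 over all loci, while the signed medians were 0.68 and 0.01. Most loci had lower levels in Control than the members, and adding 1 to FPKM shrinks log2 changes at low levels. Loci were not matched to the members by level, here or in the other comparisons.

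IGFBP4, which holds IGFs away from their receptor until it is cut, had 68.7, 63.1 and 66.2 FPKM in Control and 285, 276 and 266 FPKM in YAP-2SA. The lowest YAP-2SA library was thus far above the highest Control library. The rise was 4.18-fold in mean FPKM, a log2 fold change of 2.05 (SE 0.08, limma adjusted p = 1.6e-08).

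IGFBP6, the binder that prefers IGF-II, had 67.5, 67.5 and 77.8 FPKM in Control and 328, 339 and 328 FPKM in YAP-2SA. Its 3 YAP-2SA libraries lay close together and made it the most abundant member, at rank 357 of the 15055 tested loci from the top where it had held rank 1484 in Control. IGFBP6 rose 4.68-fold (log2 fold change 2.21, SE 0.10, limma adjusted p = 2.5e-08).

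IGFBP3, the main IGF carrier of the circulation, had 41.0, 52.6 and 48.3 FPKM in Control and 8.67, 9.47 and 8.28 FPKM in YAP-2SA. Every YAP-2SA library was below every Control library. It was 5.37-fold lower (log2 fold change -2.30, SE 0.10, limma adjusted p = 2.6e-08) and moved from rank 2222 to rank 7786.

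IGFBP5, which binds extracellular matrix as well as IGFs, had 16.0, 18.5 and 21.4 FPKM in Control and 1.23, 1.42 and 1.32 FPKM in YAP-2SA. Little of the transcript was left in any YAP-2SA library. The fall was the largest change of the family, 14.1-fold in mean FPKM (log2 fold change -3.07, SE 0.17, limma adjusted p = 1.2e-07), and 1.47% of all tested loci changed more in absolute size on the log2 scale.

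IGFBP7, the weak IGF binder, had 17.97, 18.3 and 34.0 FPKM in Control and 43.2, 41.9 and 43.7 FPKM in YAP-2SA. The Control libraries were split, since the library labelled replicate 3 lay among the 9 libraries with a YAP mutant, which ran from 23.9 to 43.7 FPKM. IGFBP7 rose 1.83-fold (log2 fold change 0.91, SE 0.21, limma adjusted p = 0.00594), and without that library the log2 fold change was 1.20 (limma adjusted p = 8.2e-05).

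IGFBP2, a binder that also carries an integrin recognition motif, had 69.1, 82.6 and 98.1 FPKM in Control and 114.7, 113 and 109.7 FPKM in YAP-2SA. Its Control libraries were spread widely, and the highest, the library labelled replicate 3, came near the YAP-2SA level. IGFBP2 rose 1.35-fold (log2 fold change 0.45, SE 0.13, limma adjusted p = 0.0174), and 31.2% of all loci changed more. Without the library labelled Control replicate 3 the log2 fold change was 0.57 (limma adjusted p = 0.00466). The rise did not pass without Control replicate 1 (log2 fold change 0.32, limma adjusted p = 0.0617) or without YAP-2SA replicate 1 (0.43, limma adjusted p = 0.0502).

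The neighbours on chromosome 2 thus moved in opposite directions, IGFBP2 upward and IGFBP5 downward. IGFBP1, beside IGFBP3 on chromosome 7, had 0.138, 0.0875 and 0.117 FPKM in YAP-2SA and 0.0410, 0.0468 and 0.0512 FPKM in Control, all far below the filter of 1 FPKM.

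**Figure D2:**
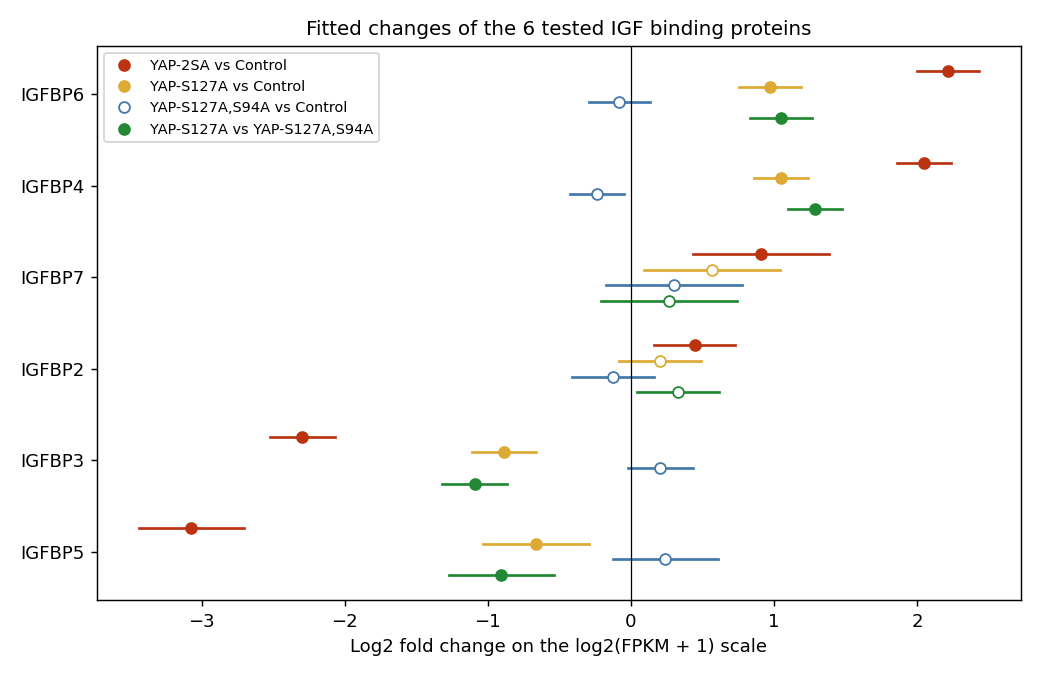
Log2 fold change of the 6 tested members on the log2(FPKM + 1) scale in 4 comparisons, with 95% confidence intervals from limma; filled points passed at an adjusted p under 0.05 and open points did not. IGFBP4 and IGFBP6 lie to the right and IGFBP3 and IGFBP5 to the left in the 3 comparisons with YAP-2SA or YAP-S127A first, and 0 of the 6 points are filled for YAP-S127A,S94A against Control.

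YAP-S127A was compared with Control to ask what added YAP without the LATS site S127 does. Without a group given unmutated YAP, the part of the mutation itself was not tested. IGFBP4 and IGFBP6 rose and IGFBP3 and IGFBP5 fell, 4 of 6 tested members, where 4.56% of all loci rose and 1.75% fell. The groups did not overlap for these 4 genes, as for 21.3% of all loci, and 1 member, IGFBP4, passed with a rise over 2-fold, as 2.07% of loci did. The members' median absolute log2 fold change was 0.77, against 0.12 over all loci.

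IGFBP4 had 133, 131 and 150.2 FPKM in YAP-S127A. All 3 values were about midway on a fold scale between Control and YAP-2SA, 2.09-fold above Control (log2 fold change 1.05, SE 0.08, limma adjusted p = 3.6e-05). IGFBP6 had 141, 123 and 157 FPKM, all above the Control libraries, and was 1.98-fold higher (log2 fold change 0.97, SE 0.10, limma adjusted p = 0.000177).

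IGFBP3 had 23.1, 28.8 and 23.5 FPKM in YAP-S127A, all below the lowest Control library. It was 1.88-fold lower (log2 fold change -0.89, SE 0.10, limma adjusted p = 0.000437). IGFBP5 had 8.95, 15.6 and 10.3 FPKM, and its highest YAP-S127A library came close to the lowest Control library at 16.0 FPKM. IGFBP5 was 1.60-fold lower (log2 fold change -0.66, SE 0.17, limma adjusted p = 0.0411), a call that was lost without the library labelled Control replicate 3 (log2 fold change -0.56, limma adjusted p = 0.136) and in other settings given in the closing section.

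IGFBP2 and IGFBP7 overlapped Control and did not pass. IGFBP2 had 85.0, 88.9 and 113.6 FPKM in YAP-S127A (log2 fold change 0.20, limma adjusted p = 0.434). IGFBP7 had 31.3, 29.9 and 40.6 FPKM (log2 fold change 0.57, SE 0.21, limma adjusted p = 0.172). Without the library labelled Control replicate 3, IGFBP7 passed, with a log2 fold change of 0.86 (limma adjusted p = 0.00552). The call on IGFBP7 therefore depended on that library.

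YAP-S127A,S94A was compared with Control to ask what remains when the added YAP cannot bind TEAD, in cells that keep their own YAP. By limma, 0 of 6 members passed and 1, IGFBP4, was under an unadjusted p of 0.05, while 0.0864% of all loci rose and 0.093% fell. With so few loci passing, a count of 0 says little about the members. IGFBP3 was the member whose groups did not overlap, as in 8.67% of loci. The members' median absolute log2 fold change was 0.22, against 0.07 over all loci.

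IGFBP4 had 50.9, 63.9 and 53.3 FPKM with YAP-S127A,S94A, 1 of them above the lowest Control library. Its log2 fold change was -0.24 (SE 0.08, unadjusted p = 0.0180, adjusted p = 0.935 by limma). IGFBP6 had 64.3, 74.8 and 62.3 FPKM, 1 of them among the Control values and the others just below, with a 95% confidence interval of the log2 fold change from -0.30 to 0.14.

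IGFBP3 had 53.5, 55.3 and 54.7 FPKM with YAP-S127A,S94A, just above the highest Control library. Its log2 fold change was 0.21 (SE 0.10, unadjusted p = 0.0686 by limma). IGFBP5 had 22.4, 22.95 and 20.9 FPKM, the last of them below the highest Control library, and a log2 fold change of 0.24 (95% confidence interval from -0.13 to 0.61). The intervals of IGFBP5 and IGFBP6 hold no change of the size seen with YAP-2SA.

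IGFBP2 had 71.2, 76.8 and 78.3 FPKM with YAP-S127A,S94A, all within the Control range. IGFBP7 had 29.1, 23.9 and 30.9 FPKM, between the split Control libraries. Its log2 fold change was 0.30 (95% confidence interval from -0.18 to 0.77). Without the library labelled Control replicate 3 the log2 fold change of IGFBP7 was 0.59 (unadjusted p = 0.00155, adjusted p = 0.439 by limma), and IGFBP7 then lay above both other Control libraries in all 3.

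The comparison of YAP-S127A with YAP-S127A,S94A sets added YAP with the TEAD contact against added YAP without it. YAP1 RNA was at like levels, 159 to 187 FPKM against 149 to 162 FPKM, and YAP protein was not measured here. A difference between the transduced pools cannot be told apart from an effect of S94A. The fold changes of this comparison use no Control library, but its SE and p share the spread of all 12 libraries. IGFBP4 and IGFBP6 were higher with YAP-S127A and IGFBP3 and IGFBP5 were lower, where 6.36% of all loci were higher and 4.31% lower. IGFBP4 differed 2.46-fold (log2 fold change 1.29, SE 0.08, limma adjusted p = 6.9e-06) and IGFBP6 2.09-fold (1.05, SE 0.10, limma adjusted p = 7.7e-05). IGFBP3 was 2.17-fold lower (log2 fold change -1.09, SE 0.10, limma adjusted p = 7.7e-05) and IGFBP5 1.90-fold lower (-0.90, SE 0.17, limma adjusted p = 0.00611).

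In that comparison the groups did not overlap for 5 of the 6 members, as for 29.4% of loci. IGFBP2 was among the 5, since each YAP-S127A library exceeded each YAP-S127A,S94A library, but its log2 fold change of 0.33 did not pass (limma adjusted p = 0.139). IGFBP7 overlapped, with a log2 fold change of 0.27 (95% confidence interval from -0.21 to 0.74, limma adjusted p = 0.499). Without the library labelled Control replicate 3 the SE of IGFBP7 went from 0.21 to 0.12 and it still did not pass (limma adjusted p = 0.205). For IGFBP7, then, a difference between added YAP with and without the TEAD contact was not detectable at this spread.

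YAP-2SA was compared with YAP-S127A to ask what the further loss of the LATS site S381 adds. IGFBP4 and IGFBP6 were higher again and IGFBP3 and IGFBP5 lower again, where 18.3% of all loci were higher and 14.5% lower. IGFBP5 made the largest step, 8.79-fold lower in YAP-2SA (log2 fold change -2.41, SE 0.17, limma adjusted p = 1.6e-06), and IGFBP3 was 2.85-fold lower (-1.41, SE 0.10, limma adjusted p = 2.2e-06). IGFBP6 was 2.36-fold higher (log2 fold change 1.24, SE 0.10, limma adjusted p = 4.2e-06) and IGFBP4 2.00-fold higher (0.997, SE 0.08, limma adjusted p = 7.8e-06).

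The order of levels was thus YAP-2SA, YAP-S127A, then Control and YAP-S127A,S94A without a called difference for IGFBP4 and IGFBP6, and the reverse for IGFBP3 and IGFBP5. YAP1 RNA did not follow that order, since it was 129.7 to 149 FPKM in YAP-2SA and 159 to 187 FPKM in YAP-S127A. RNA level does not give the amount or activity of YAP protein, and the part of either in these changes was not tested. For IGFBP7 the YAP-2SA libraries lay above those of YAP-S127A without passing (log2 fold change 0.34, limma adjusted p = 0.260), and the groups of 5 members in all did not overlap, as in 43.6% of loci. IGFBP2 overlapped and did not pass (log2 fold change 0.24, limma adjusted p = 0.184), but passed without YAP-S127A replicate 3 (0.37, limma adjusted p = 0.0411).

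The opposite changes altered both the size and the make-up of the family's RNA. Summed over the 7 members, the 3 Control libraries had 280.4, 303 and 346 FPKM and the 3 YAP-2SA libraries 781, 782 and 758 FPKM. The sum was 422, 417 and 496 FPKM in YAP-S127A and 291, 318 and 301 FPKM in YAP-S127A,S94A, whose values fell among those of Control. The mean sum was thus 309.7 ± 33.3 FPKM in Control and 773 ± 13.6 FPKM in YAP-2SA (SD, n = 3).

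In Control the sum was spread over the members, with IGFBP2 at 26.8% ± 1.92 and IGFBP6 at 23.0% ± 0.986 (SD, n = 3). In YAP-2SA, IGFBP6 made up 42.9% ± 0.810 and IGFBP4 35.7% ± 0.751. IGFBP3 went from 15.3% ± 1.82 to 1.14% ± 0.0638 and IGFBP5 from 6.001% ± 0.252 to 0.171% ± 0.0122. The share of IGFBP2 was 14.6% ± 0.115 in YAP-2SA although its own level rose, and that of IGFBP7 was 7.44% ± 2.09 in Control and 5.56% ± 0.205 in YAP-2SA.

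**Figure D3:**
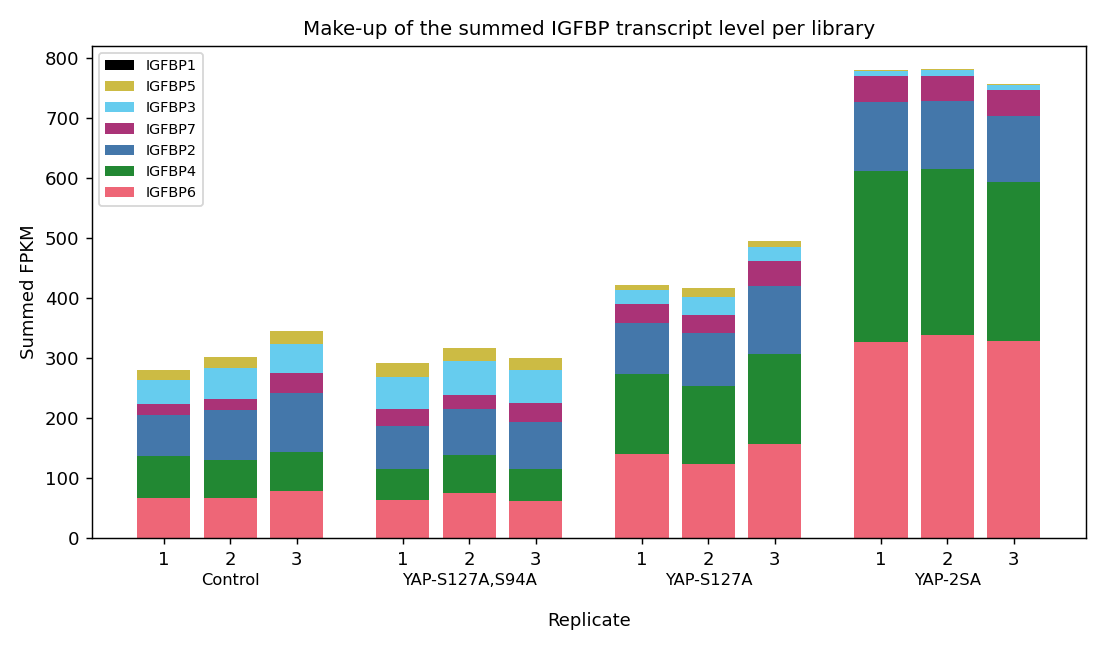
Summed FPKM of the 7 members in each of the 12 libraries, stacked by member, with replicates 1 to 3 of each group side by side. The 3 YAP-2SA bars reach 758 to 782 FPKM and consist mostly of IGFBP6 and IGFBP4, while the Control and YAP-S127A,S94A bars reach at most 346 FPKM and hold visible blocks of IGFBP3 and IGFBP5.

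Over the 12 libraries, log2(FPKM + 1) of IGFBP4 and IGFBP6 moved together (Pearson r = 0.991), as did that of IGFBP3 and IGFBP5 (r = 0.981), while IGFBP3 and IGFBP6 moved oppositely (r = -0.989). IGFBP2 and IGFBP7 had r = 0.836. These values describe 4 groups of 3 libraries and mostly carry the differences between those groups. The loci most alike in pattern to IGFBP4 were LASP1, KRT80 and AXL (r = 0.999, 0.998 and 0.997), and to IGFBP6 PLCD3, LOXL2 and GDPD5 (r = 0.997, 0.996 and 0.996). For IGFBP3 they were S100A13, IFNGR2 and TPD52L1 (r = 0.996, 0.994 and 0.992), and for IGFBP5 SCARA5, ART3 and ACSL3 (r = 0.996 each). IGFBP2 and IGFBP7 had looser companions, ADCY9, PODXL2 and CACNB3 (r = 0.962, 0.959 and 0.952) and ZFAND3, GATA2 and SOCS3 (r = 0.948, 0.922 and 0.915).

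The binding proteins act between IGF ligands and receptors, and those were read next. The ligand genes IGF1, IGF2 and INS, of which the last pair share a locus in the table, and the orphan receptor INSRR stayed at or below 0.0651 FPKM in every library and were not tested. Of the 3 receptors tested, IGF1R and IGF2R fell in YAP-2SA and INSR did not pass, where 19.5% of all loci fell. IGF1R, the receptor that IGF-I activates, had 42.5, 33.3 and 46.0 FPKM in Control and 15.0, 20.4 and 21.5 FPKM in YAP-2SA, without overlap (log2 fold change -1.06, SE 0.22, limma adjusted p = 0.00284). In YAP-S127A it overlapped Control (log2 fold change -0.16, limma adjusted p = 0.770). IGF2R, which clears IGF-II, changed by -0.22 in YAP-2SA (limma adjusted p = 0.0455, and 0.119 without the library labelled Control replicate 3). Without that library its log2 fold change was -0.20.

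Of 7 proteases that cut IGF binding proteins, 4 were tested, and in YAP-2SA 1 rose and 2 fell, against 22.9% and 19.5% of all loci. The pappalysins PAPPA and PAPPA2 and the protease ADAM28 stayed at or below 0.326 FPKM. HTRA1, a secreted serine protease that cuts IGFBP5, had 18.8, 26.3 and 29.8 FPKM in Control and 0.908, 1.05 and 1.03 FPKM in YAP-2SA. HTRA1 RNA was nearly gone in all 3 YAP-2SA libraries (log2 fold change -3.68, SE 0.14, limma adjusted p = 8.8e-09). The lysosomal protease CTSD fell by 0.62 and ADAM9 rose by 0.31 on the log2 scale (limma adjusted p = 0.000667 and 0.00327).

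STC2, a secreted inhibitor of the pappalysins, had 2.20, 1.93 and 2.17 FPKM in Control, 5.73, 5.73 and 5.58 FPKM in YAP-S127A and 22.4, 18.03 and 18.7 FPKM in YAP-2SA. Its groups were stepped in the order seen for IGFBP4 and IGFBP6. It rose in YAP-2SA (log2 fold change 2.73, SE 0.11, limma adjusted p = 1.2e-08) and in YAP-S127A (1.11, limma adjusted p = 0.000155). Its relative STC1 did not pass in YAP-2SA (log2 fold change -0.01).

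Of 6 partners and related binding proteins, 4 were tested and 2 rose in YAP-2SA, as 22.9% of all loci did. ESM1, also called endocan, a secreted proteoglycan with an IGFBP-type domain, had 0.517, 0.389 and 0.5999 FPKM in Control, 11.8, 13.4 and 7.22 FPKM in YAP-S127A and 28.8, 35.7 and 27.8 FPKM in YAP-2SA. It rose by 4.40 in YAP-2SA (SE 0.18, limma adjusted p = 1.5e-08) and by 2.94 in YAP-S127A on the log2 scale (limma adjusted p = 6.6e-06). ESM1 was below 1 FPKM in every library of Control and YAP-S127A,S94A. It passed the filter only through the groups where it was high, so its entry to the test came with its rise. LRP1, a surface receptor that binds IGFBP3, had 4.70, 4.18 and 22.1 FPKM in Control and 19.5, 33.1 and 25.1 FPKM in YAP-2SA, so that the library labelled Control replicate 3 overlapped YAP-2SA. LRP1 rose by 1.58 on the log2 scale (limma adjusted p = 0.0311), and by 2.27 without that library (limma adjusted p = 0.000514). IGFALS, which holds IGFBP3 and IGF-I in a circulating complex, was not tested, and TMEM219, an IGFBP3 receptor, did not pass (log2 fold change -0.09).

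Of 18 genes that relay the receptor's signal, 16 were tested, and in YAP-2SA 3 rose and 7 fell, against 22.9% and 19.5% of all loci. The count that rose is near or under that background. IRS1, the adaptor that docks on the IGF-I receptor, had 2.499, 2.97 and 2.80 FPKM in Control, 5.62, 6.25 and 8.29 FPKM in YAP-S127A and 14.9, 16.4 and 13.9 FPKM in YAP-2SA, with no overlap among the groups. It rose in YAP-2SA (log2 fold change 2.09, SE 0.13, limma adjusted p = 4.2e-07) and in YAP-S127A (1.03, limma adjusted p = 0.000939). PIK3R3 and PIK3R1, regulatory subunits of PI3-kinase, fell by 1.28 and 0.73 on the log2 scale, the adaptor GRB10 by 0.70 and the transcription factors FOXO4 and FOXO1 by 0.98 and 0.66 (limma adjusted p from 3.8e-06 to 0.00798). Of the 7 that fell, IRS2 did not pass without the library labelled Control replicate 3 (limma adjusted p = 0.0286 with it and 0.0713 without it). Its log2 fold change was -0.65 with that library and -0.63 without it, while its SE went from 0.21 to 0.25.

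Of the 3 IGF2 mRNA-binding proteins, which share a name with the family but bind RNA, IGF2BP1 rose by 0.30, while IGF2BP2 and IGF2BP3 fell by 0.49 and 0.83 on the log2 scale in YAP-2SA (limma adjusted p = 0.0119, 0.0448 and 2.9e-06). The call on IGF2BP2 was lost without the library labelled Control replicate 3 (log2 fold change -0.39, limma adjusted p = 0.147).

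In YAP-S127A against Control, 3 genes of these 6 lists rose, ESM1, STC2 and IRS1, and 3 fell, HTRA1, STC1 and IGF2BP3, where 4.56% of all loci rose and 1.75% fell. Of these, ESM1 passed the filter only through YAP-S127A and YAP-2SA. HTRA1 changed by -0.61 (limma adjusted p = 0.0266) and STC1 by -0.54 (limma adjusted p = 0.0438), and both calls were lost without the library labelled Control replicate 3 (limma adjusted p = 0.0830 and 0.141), whereas LRP1 then passed (log2 fold change 1.44, limma adjusted p = 0.0433). In YAP-S127A,S94A against Control 0 genes of the 6 lists passed by limma and 2, HTRA1 and IGF2BP3, were under an unadjusted p of 0.05. With 0.0864% of all loci rising and 0.093% falling there, a count of 0 says little about these lists. Against YAP-S127A,S94A, YAP-S127A had higher ESM1, STC2 and IRS1 (log2 fold change 3.18, 1.26 and 1.30) and lower HTRA1, STC1 and IGF2BP3 (-0.97, -0.73 and -0.56). Without the library labelled Control replicate 3, which enters through the spread, LRP1 also passed there (limma adjusted p = 0.0429, against 0.210 with it).

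**Figure D4:**
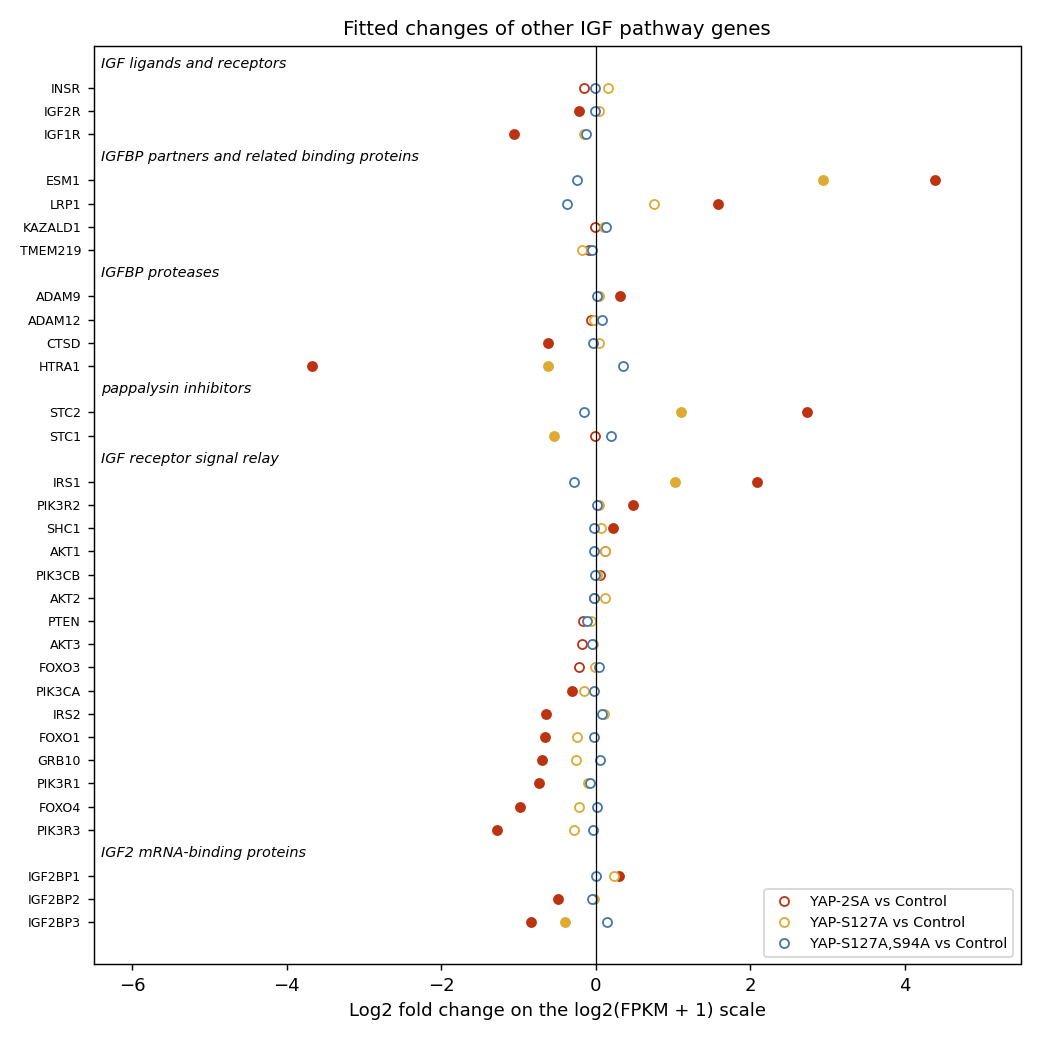
Log2 fold change on the log2(FPKM + 1) scale of the tested genes of 6 other lists of the IGF pathway against Control in the 3 YAP mutants; filled points passed at a limma adjusted p under 0.05 and open points did not. ESM1, STC2 and IRS1 lie to the right and HTRA1 to the left in YAP-2SA and, nearer to 0, in YAP-S127A, and the YAP-S127A,S94A points are all open.

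Lineage markers changed in YAP-2SA, and fewer of them did in YAP-S127A. The summed level of the 8 melanocyte markers was 280.7 to 345 FPKM in Control, 231 to 300.4 in YAP-S127A, which overlapped Control, 301 to 336 in YAP-S127A,S94A and 39.6 to 49.8 in YAP-2SA. Most of this sum was SOX10 in Control (mean 263 FPKM) and MITF in YAP-2SA (mean 35.0 FPKM). Of the 3 tested, SOX10 and S100B fell in YAP-2SA, to 4.53 to 7.25 and 0.605 to 1.03 FPKM, and MITF rose, to 30.1 to 41.0 FPKM from 5.01 to 11.02 in Control. In YAP-S127A, 0 of these 3 passed by limma, and MITF and S100B were under an unadjusted p of 0.05. The summed level of the 6 markers of other cell types was 6.75 to 8.05 FPKM in Control, 13.8 to 17.5 in YAP-S127A, 7.31 to 7.64 in YAP-S127A,S94A and 30.1 to 38.5 in YAP-2SA. The 3 tested did not move alike, since the collagen gene COL1A1 rose in YAP-2SA from a mean of 0.322 to 33.4 FPKM and the keratin gene KRT5 from 0.0282 to 1.56 FPKM, whereas KRT14 fell from 6.87 to 0.434 FPKM. In YAP-S127A COL1A1 passed, at a mean of 7.27 FPKM, and KRT5 and KRT14 did not. KRT5 passed the filter only through YAP-2SA, and COL1A1 only through YAP-S127A and YAP-2SA. The entry of COL1A1 and KRT5 to the test thus came with their rise. The part of these shifts in the changes of the binding proteins was not tested.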

How the data were processed

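RNA of A375 cells was sequenced by the authors in 12 libraries, 3 in each of 4 groups. Per the submitters' processing notes and the study's methods, reads were demultiplexed with bcl2fastq 2.15.0, aligned to hg19 (GRCh37) with Bowtie2 2.0.0 and TopHat2 2.0.4, and assembled and quantified with Cufflinks 2.0.2. Per locus, the authors deposited log2(FPKM + 1) in each library, and this log2 scale was taken from the study and checked on the values, none of which is below 0. FPKM was computed from the deposited log2 values. No read counts were used, so count tests were not run and depth limits the precision by an unknown amount. Whether strand was used in counting is not given in the sources used here. The table held 31588 entries, 3 identical ones were removed, and 0 columns were left unused. Where a symbol stood on several loci, the one with the highest mean was used.

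Loci that reached 1 FPKM in 3 or more libraries entered limma 3.58.1 in R 4.3.3 (1 mean per group, intensity trend, all 12 libraries, 5 comparisons, pseudocount 1). The comparisons with Control share its libraries. Fold changes over 2 are ratios of mean FPKM. The script was tested on simulated data. The authors' own differential expression with Cufflinks was not repeated. Plots were made in Python 3.11.15 with matplotlib 3.10.9.

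All 7 members were named whatever their values, together with YAP1, up to 6 genes of each other list that passed in YAP-2SA against Control with the largest changes, and the 3 loci most alike to each tested member. Genes named beyond that, STC1, INSR, TMEM219, IRS2 and those listed below the filter among them, were named after their values were seen. The members and lists were chosen with earlier results of these data known. Gene positions come from GENCODE on GRCh37, and promoter sequences from RefSeq, for 5 of the 7 members. Alternatives were a pseudocount of 0.25, a filter at 5 FPKM, no filter, median-ratio scaling, quantile normalization, no intensity trend, the replicate number as a block, a fit of the 6 libraries compared, and each library left out in turn.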

Additional observations from a re-analysis of the deposited data

Results flagged for a closer look

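For 4 members the change against Control had opposite signs in YAP-S127A and YAP-S127A,S94A, and the direct comparison of the 2 mutants passed in limma. The log2 fold change of YAP-S127A against YAP-S127A,S94A was 1.29 for IGFBP4 and 1.05 for IGFBP6, and -1.09 for IGFBP3 and -0.90 for IGFBP5. In each case the 3 libraries of one mutant lay on one side of all 3 libraries of the other. The changes of YAP-S127A,S94A against Control did not themselves pass for any of the 4. Groups of 3 libraries were not tested for single outlying samples.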

How the results depend on the processing

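Each of the 30 member changes was recomputed under 20 alternatives, and of these values 584 kept their direction and their side of the threshold, 14 kept their direction but no longer passed, 2 newly passed and 0 reversed. IGFBP3, IGFBP4 and IGFBP6 kept every call. The fall of IGFBP5 in YAP-S127A against Control did not pass in 12 of the 20 (log2 fold change from -0.88 to -0.51 over the 20, limma adjusted p from 0.00178 to 0.197), so that the count of members lower in this comparison was 1 with no filter on FPKM, 1 with only the 6 libraries compared, and between 1 and 2 when single libraries were left out. The 10 leave-one-out losses (any library but Control replicate 1 or YAP-S127A replicate 2) had limma adjusted p from 0.0606 to 0.136 and included the libraries of the groups not compared, which enter through the shared estimate of the spread. A group left with 2 libraries was fitted with the spread pooled over all groups. With the replicate number as a block, 4 members were higher and 2 lower in YAP-2SA against Control, 2 and 2 in YAP-S127A against Control, 0 and 0 in YAP-S127A,S94A against Control, and 2 and 2 in both other comparisons, the same counts as without it. Deviations of same-numbered libraries correlated between -0.149 and 0.163, with 2 of 15 pairs over 0.1, so the numbers were not taken to pair the samples. The median of all loci moved by at most 0.0333 on the log2 scale. IGFBP1 entered the tests only without the filter. Depth is unknown, so small changes of the weakly expressed loci cannot be judged beyond the spread of 3 libraries.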
